A study of Mus musculus with 28 samples.

Results

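The older LINE families are the LINE repeats of the mouse genome other than the young L1Md families. Members were taken by name from the deposited repeat table: class LINE, with a family name that does not begin with L1Md. The rule gave 110 of 539 repeat families and used no measured value. The table lists 837945 genomic elements for them, from 106 in L1MEg2 to 65407 in Lx8, with a median of 3712.5 a family. It also holds 6 L1Md families, 37 SINE families and 16 IAP families, which are used below for comparison.

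LINEs are non-LTR retrotransposons: autonomous elements that encode their own reverse transcriptase and copy themselves through an RNA. Most copies are cut short at the 5′ end and carry mutations, and only the youngest L1 subfamilies of the mouse still move. SETDB1 deposits H3K9me3, a mark of silent chromatin, at many retrotransposons, among them the IAP endogenous retroviruses. Germ cells at this stage of development have lost most of their DNA methylation, so histone marks at repeats are of particular interest in them.

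The samples were primordial germ cells, the precursors of sperm and eggs, sorted as SSEA1+ cells from mouse gonads at E13.5 of embryonic development. Knockout (KO) cells were Setdb1 delta/-. Heterozygous controls (Het) for RNA were Het1 (delta/+) and Het2 (flox/-), each with 2 libraries per sex, and the KO also had 2 libraries per sex. A wild-type library of each sex (flox/+) was kept outside the tests. For chromatin, H3K9me3 and H3K27me3 were each measured in 1 Het (flox/-) and 1 KO library per sex, and total H3 in 1 library of wild-type (C57BL/6) male germ cells. Het1 and KO share the delta allele, and Het2 and KO share the null allele; the driver that makes the delta allele is not named in the labels. Whether replicates come from separate embryos is not labelled either, so p-values measure the spread between libraries, which may be technical. All values are RPKM (reads per kilobase of feature, scaled to library size) pooled over the copies of a family. The number of reads behind a value is unknown, and the mark values come in steps of 0.01 RPKM. RNA values of the female and the male replicate 1 cross libraries also appear in steps of 0.01 RPKM. Those of the male wild-type and male replicate 2 libraries are finer.

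Setdb1 RNA checked the labels. It stood at 46.1 ± 6.25 RPKM (SD, n = 4) in male Het and 29.2 ± 2.89 (n = 2) in male KO, and at 45.7 ± 9.05 (n = 4) and 33.0 ± 2.38 (n = 2) in females. Every KO library was below every Het library of its sex, although limma over 13518 genes did not call it (log2 difference in the sexes together -0.54, SE 0.13, adjusted p = 0.0783). Germ cell markers, of which 7 of 8 were in the gene table, summed to between 1403 and 2227 RPKM in the Het, wild-type and male KO libraries of the cross and to 1033 and 1324 RPKM in female KO, against 17.1 RPKM in the C57BL/6 soma library.

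By name, the members fell into 13 groups. The rodent L1 group has 28 families (the Lx series and L1_Mur, L1_Mus, L1_Mm, L1_Rod and L1VL) and holds 518508 of the elements. A further group has 18 L1M families with mixed names, and 16 are L1ME, 10 L1MC, 9 L1MA, 7 L1MB and 6 L1MD, all mammalian L1 subfamilies named in the order of their age. The remainder are 4 HAL1, 4 L2, 3 CR1 and 2 L1P families, L4 and L5, and MusHAL1. L2 and CR1 are LINE lineages older than the radiation of mammals. L1MD, L1MDa and L1MDb differ from the excluded L1Md names in the case of 1 letter, and are members.

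The label "older" fitted the deposited mappability of most members and that of a few less well. The table gives each family a mappability between 0 and 1. Its definition is not stated, and it ranks families against what its name says: the near-identical IAPEz-int stands at 0.99 and L1Md_A at 0.97, while families of long-diverged copies stand near 0. Members had a median of 0.02, and 85 of 110 were at 0.1 or below, with CR1_Mam, HAL1b, L1M3de, L1M7, L1MEg2 and L5 at 0. The rodent L1 families ran from 0.02 to 0.73 with a median of 0.21. L1_Mm and L1_Mus1, both at 0.73, came close to the L1Md families, which ran from 0.76 to 0.97. On this scale, which is not a measured age, the set runs from families at 0 to murine L1 families near the L1Md range.

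RNA of the older LINE families was low throughout. The mean over the 12 cross libraries ran from 0.0511 to 0.643 RPKM, with a median of 0.273 RPKM over families. Rodent L1 families, which have the most copies, were the lowest (0.0511 to 0.190 RPKM, median 0.096), and the other 82 families stood higher (0.101 to 0.643 RPKM, median 0.323). The values are scaled for length and library size, but how reads matching many copies were handled is unknown. Levels of families whose copies differ in likeness may therefore not be comparable. Reads from an ancient copy inside a gene's intron or UTR count towards its family like those of the repeat's own transcripts.

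The highest levels were in CR1_Mam, L1ME4a, L4, L1MEe and L1MB7, all with a mappability of 0.03 or less. CR1_Mam, of the CR1 lineage, had 0.49, 0.698, 0.47 and 0.603 RPKM in the 4 male Het libraries and 0.68 and 0.69 RPKM in male KO. In females it had 0.54, 0.95, 0.48 and 0.76 RPKM in Het and 0.55 and 0.81 RPKM in KO. Het and KO overlapped in both sexes, and wild type had 0.612 RPKM in males and 0.89 RPKM in females. L4, of the RTE lineage, varied least of these: 0.55, 0.578, 0.48 and 0.598 RPKM in male Het, 0.68 and 0.614 in male KO, 0.5, 0.75, 0.54 and 0.66 in female Het, and 0.6 and 0.64 in female KO. Its 2 male KO libraries were narrowly above the 4 male Het libraries, and the female groups overlapped. L1ME4a averaged 0.489 ± 0.18 RPKM in male Het (SD, n = 4) against 0.624 ± 0.0049 in male KO (n = 2). In females it averaged 0.718 ± 0.32 RPKM in Het and 0.600 ± 0.25 in KO, with overlap in both sexes.

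The control libraries spread widely. In male Het the median over members was 0.18 and 0.2795 RPKM in Het1 replicates 1 and 2, and 0.15 and 0.289 RPKM in Het2 replicates 1 and 2. In female Het it was 0.17 and 0.51 RPKM in Het1, and 0.21 and 0.35 RPKM in Het2. Both replicate 2 libraries thus stood above both replicate 1 libraries in each sex. This order held for 106 of 110 members in males (96.4%, against 81.6% of all families) and 105 of 110 in females (95.5%, against 89.8%). The KO medians lay at 0.33 and 0.2925 RPKM in males and at 0.235 and 0.355 RPKM in females, and wild type at 0.255 and 0.365 RPKM. The labels give the replicate numbers no meaning beyond the number.

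**Figure D1:**
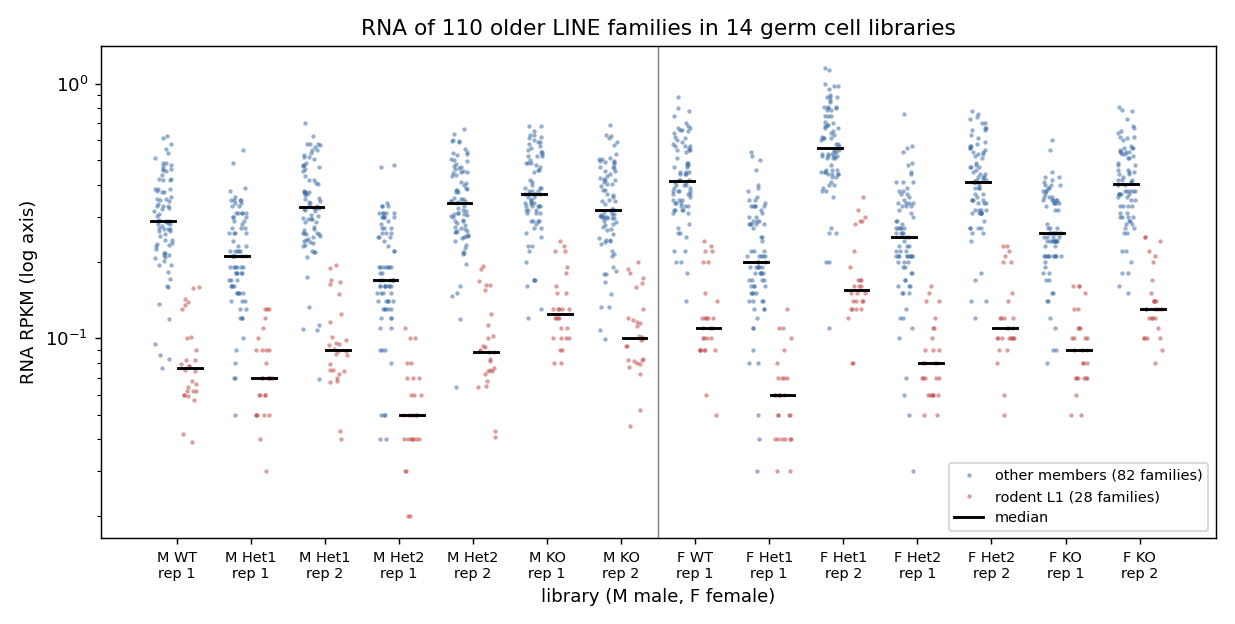
RNA level (RPKM, log axis) of the 110 older LINE families in the 14 germ cell libraries of the cross; each point is a family, blue for the 82 families outside the rodent L1 group and red for the 28 rodent L1 families, and bars mark the medians. The rodent L1 median lies below that of the other families in every library, and the Het replicate 2 libraries lie above the Het replicate 1 libraries in both sexes.

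Between male KO and male Het germ cells, the limma fit of group means called no older LINE family. Of 108 members tested (Lx2A and Lx2A1 were too low), 0 rose and 0 fell at an adjusted p under 0.05 by limma on log2(RPKM + 0.1), and 1, L1M3a, had an unadjusted p under 0.05. Over all families tested 2.46% were called, all higher in KO. The log2 differences of the members ran from -0.21 to 0.76 with a median of 0.31, a median SE of 0.30 and a smallest adjusted p of 0.317. Over all families tested the median was 0.29, so the members sat where the other families sat. With each library centred on its own median the members' median was 0.00 and that of all families -0.02.

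L1M3a, an L1M family of 124 elements, had the largest male difference. It stood at 0.08, 0.252, 0.05 and 0.217 RPKM in male Het and at 0.33 and 0.266 RPKM in male KO. Both KO libraries were above all 4 Het libraries, while the male wild type had 0.159 RPKM. The log2 difference was 0.76 (SE 0.30, adjusted p = 0.317 by limma). With the replicate number as a block, limma called it (SE 0.22, adjusted p = 0.0209). With the block and centring together, chosen after seeing the data, no member was called in males.

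The order of the male libraries was counted next. Both male KO libraries were above all 4 male Het libraries for 45 of 110 members (40.9%), against 34.9% of all families. The split by group was 26 of 28 rodent L1 families (92.9%) and 19 of the other 82 (23.2%). The order also held for 5 of the 6 L1Md families (83.3%). No member had both male KO libraries below all male Het libraries. Lx6, a rodent L1 family of 29266 elements, shows the size of the step: 0.09, 0.125, 0.07 and 0.125 RPKM in male Het and 0.16 and 0.13 RPKM in male KO. Its lower KO value was just above its highest Het values, and limma did not call its log2 difference (0.28, SE 0.24, adjusted p = 0.520). When each library was divided by its median over all families, the order held for 11 members (10%) against 9.09% of all families. Among them were 7 of the 28 rodent L1 families (25%). The opposite order then held for L1ME3B and L5, 2 of 110 members against 10.8% of all families. All families share the same libraries, so these counts are not of independent cases.

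Among the marker lists, only the Leydig and steroidogenic sum separated male KO from male Het. Summed RPKM of 6 Leydig and steroidogenic genes was between 4.34 and 7.58 in the male Het libraries, between 27.5 and 59.8 in male KO, 21.6 in male wild type and 752 in soma. The 5 Sertoli genes overlapped between male Het (6.85 to 39.3) and male KO (17.2 to 43.3), and so did the 5 stromal genes (8.57 to 24.5 and 19.6 to 24.8). The germ cell, pregranulosa, endothelial, macrophage and erythroid genes also overlapped between male Het and male KO. The part of cells other than germ cells in the RNA values of the families was not tested. Within replicate number 1 the members' median log2 difference of male KO from Het was 0.64 (0.55 over all families), with 108 of 108 positive. Within replicate number 2 it was -0.003 (0.014 over all families), with 53 positive and 55 negative.

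In female germ cells 0 of 108 members were called, and 0 had an unadjusted p under 0.05; over all families tested 1.89% were called. The members' median log2 difference was -0.01 (0.05 over all families), and 50 were positive and 58 negative, with a range of -0.42 to 0.36. No member had both female KO libraries above all 4 female Het libraries, an order seen in 9.28% of all families, and none had the opposite order. With each library divided by its median over all families, 1 member (L1MEa) had both female KO libraries above Het, against 11.5% of all families, and 12 had both below, against 13.7%. L1M3a, highest among male differences, had 0.08, 0.27, 0.16 and 0.27 RPKM in female Het and 0.24 and 0.22 RPKM in female KO, fully inside the Het range. Some marker sums differed between female KO and Het. The 7 germ cell genes summed to 1033 and 1324 RPKM in female KO, below the 1403 to 1764 RPKM of female Het. The 4 pregranulosa genes (10.5 and 12.8 RPKM against 4.65 to 8.49), the 5 stromal genes (31.2 and 39.0 RPKM against 11.6 to 26.7) and the 5 Sertoli genes (9.42 and 18.1 RPKM against 6.99 to 9.38) were higher in female KO than in every female Het library. The 4 erythroid genes overlapped, from 1.78 to 257 RPKM in female Het and at 2.19 and 43.1 RPKM in female KO. So did the Leydig (5.98 to 12.4 RPKM in Het, 5.9 to 7.39 in KO), endothelial (18.7 to 67.3 and 29.7 to 37.4) and macrophage genes (5.09 to 6.72 and 4.44 to 7.12). The part of these cells in the RNA values was not tested. Within replicate number 1 the members' median was 0.15 (99 positive, 9 negative), and within replicate number 2 it was -0.19 (13 positive, 95 negative).

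Over both sexes together 0 of 108 members were called and L1M3a and L1M3b had an unadjusted p under 0.05, while 6.82% of all families tested rose. The 15 IAP families tested in the same fit include 11 that rose, with a median log2 difference of 0.59, and 2 of the 4 L1Md families tested rose, with a median of 0.34. The members' median was 0.15 (SE 0.21 at the median) and that of all families 0.17; 105 members were positive and 3 negative. Rodent L1 families had a median of 0.17 (0.12 to 0.30, 26 tested) and the other 82 a median of 0.14. Simulated data for this comparison held 528 families. The same test called 19 of 20 families raised by 1 on the log2(RPKM + 0.1) scale and 20 of 20 lowered by 1. For families near 0.1 RPKM such a step is more than 2-fold in RPKM. Among 468 unchanged families there were 2 false calls. The simulated noise was independent between families and libraries, unlike the shared shifts of the real libraries, so the share found in the real data may be lower.

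**Figure D2:**
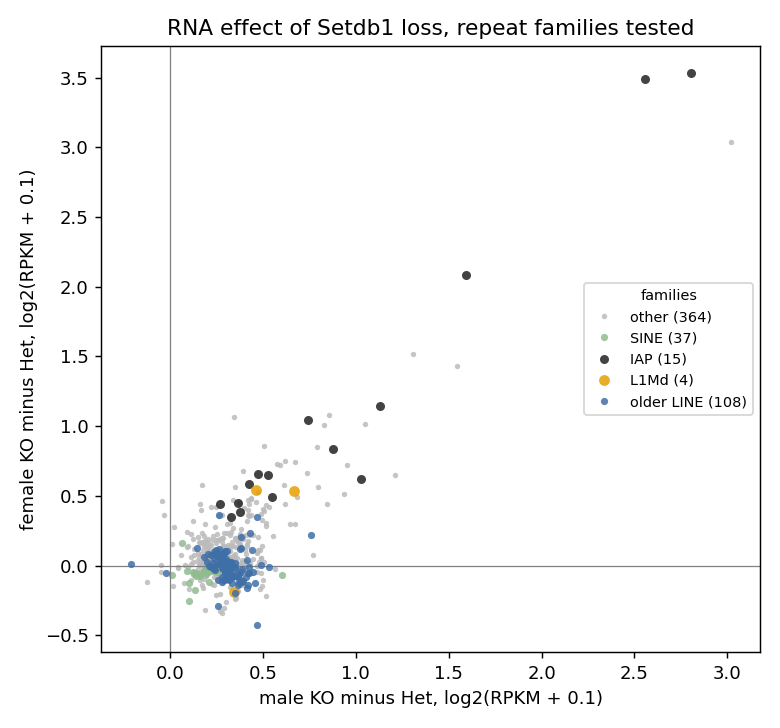
Difference of KO from Het in RNA, on the log2(RPKM + 0.1) scale, in males (x axis) and females (y axis) for 528 repeat families; each point is a family, with older LINE families in blue, L1Md in orange, IAP in black, SINE in green and the rest in grey. The older LINE families lie between -0.21 and 0.76 in males and between -0.42 and 0.36 in females, among the other families, and the highest IAP families lie far above them in both sexes.

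The smallest p-values over both sexes belonged to L1M3b, L1M3a, L1VL1, L1M3c, L1VL4, L1MEa, L1MDb and Lx3B. L1M3b, an L1M family of 164 elements, had 0.09, 0.069, 0.05 and 0.064 RPKM in male Het and 0.17 and 0.099 RPKM in male KO. In females it had 0.03, 0.11, 0.12 and 0.12 RPKM in Het and 0.11 and 0.18 RPKM in KO. The male groups did not overlap and the female groups did. With the sexes combined, limma gave a log2 difference of 0.41 with an SE of 0.16 and an adjusted p of 0.174. With the replicate number as a block L1M3b passed (adjusted p = 0.0397 by limma), and with the block and centring together it did not.

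L1VL1 and L1VL4, rodent L1 families of 2852 and 6954 elements, are described again below for their H3K9me3. L1VL1 RNA was 0.07, 0.072, 0.04 and 0.074 RPKM in male Het and 0.13 and 0.098 RPKM in male KO, and 0.05, 0.14, 0.08 and 0.1 RPKM in female Het and 0.1 and 0.14 RPKM in female KO. The male groups did not overlap, and the female KO values were inside the Het range. The combined log2 difference of L1VL1 was 0.30, with an SE of 0.15 and a limma adjusted p of 0.416. L1VL4 RNA was 0.08, 0.091, 0.05 and 0.09 RPKM in male Het and 0.15 and 0.112 RPKM in male KO, with means of 0.110 ± 0.047 RPKM (SD, n = 4) and 0.125 ± 0.021 (n = 2) in female Het and KO. Its difference was 0.25 (SE 0.16, adjusted p = 0.636). For the remaining families of this list the difference lay between 0.20 (Lx3B) and 0.49 (L1M3a, adjusted p = 0.228 by limma). In the fit of group means none passed. With the replicate number as a block L1M3a passed (adjusted p = 0.0234 by limma), and with the block and centring together it did not.

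The KO effect was not shown to differ between the sexes for any member. The female minus male difference of the effects had a median of -0.33 over members (-0.22 over all families), which was -0.11 without female KO replicate 1, -0.14 without female Het1 replicate 2 and -0.56 without female KO replicate 2. In the full fit 0 members were called, and 1 had an unadjusted p under 0.05, with a smallest adjusted p of 0.898; 0% of all families were called. That family is L1P5, which appears again in the next comparison. A difference between Het1 and Het2 was not shown for any member: 0 of 108 were called against 0% of all families, and 0 had an unadjusted p under 0.05. The median difference was 0.08, and leaving out 1 library moved it between -0.17 (without female Het1 replicate 2) and 0.35 (without female Het1 replicate 1).

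Among control germ cells, RNA of older LINE families was not called different between females and males in any of 108 cases, nor in any other family (0%). The members' median female minus male difference was 0.27 (0.18 over all families), 104 were positive, and 3 had an unadjusted p under 0.05; centring each library brought the median to 0.09. It was 0.08 without female Het1 replicate 2, 0.15 without male Het2 replicate 1 and 0.41 without female Het1 replicate 1. The smallest p-values were those of L1P5, L1MCb, L1M7, L1M6 and L1MEd, all at an adjusted p of 0.770 by limma. L1P5, of 177 elements, had 0.39, 0.345, 0.3 and 0.377 RPKM in male Het and 0.52, 0.7, 0.76 and 0.47 RPKM in female Het. It was the only member whose 4 female Het libraries were all above the 4 male ones, an order seen in 1.3% of all families. Its log2 difference was 0.64 (SE 0.24, adjusted p = 0.770 by limma), and its KO libraries stood at 0.61 and 0.452 RPKM in males and 0.35 and 0.51 RPKM in females. L1MCb showed the same direction with overlap: 0.1, 0.132, 0.08 and 0.16 RPKM in male Het and 0.12, 0.4, 0.18 and 0.24 RPKM in female Het.

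H3K9me3 in control germ cells lay over rodent L1 families more than over the other members. H3K9me3 was set against total H3 as a ratio of RPKM + 0.1, and a ratio above 1 means more H3K9me3 signal than total H3 signal. In male Het the median ratio was 0.712 over members (0.621 to 2.81). It was 1.38 over rodent L1 families and 0.692 over the other 82, against 2.77 over L1Md and 7.55 over IAP families. In male Het 22 of 28 rodent L1 families were above total H3, and in female Het 23 of 28; outside that group 2 and 5 of 82 were. Because total H3 comes from 1 wild-type C57BL/6 male library, all of these ratios compare different genotypes and strain labels, and the female ratios also different sexes.

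The ratio was higher in families of higher deposited mappability. Across the 110 members the Spearman correlation of mappability with H3K9me3 over total H3 was 0.820 in male Het and 0.771 in female Het (0.860 and 0.849 over all 539 families). With total H3 itself it was -0.081, and with mean RNA -0.604 (-0.147 over all families). The points share their libraries, and families share sequence, so these values are a description. L1VL1 stood above the other members of similar mappability (0.56), with a ratio of 2.81, and was the only member inside the L1Md range of 2.48 to 4.33. Families outside the set near that mappability stood both above and below it.

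**Figure D3:**
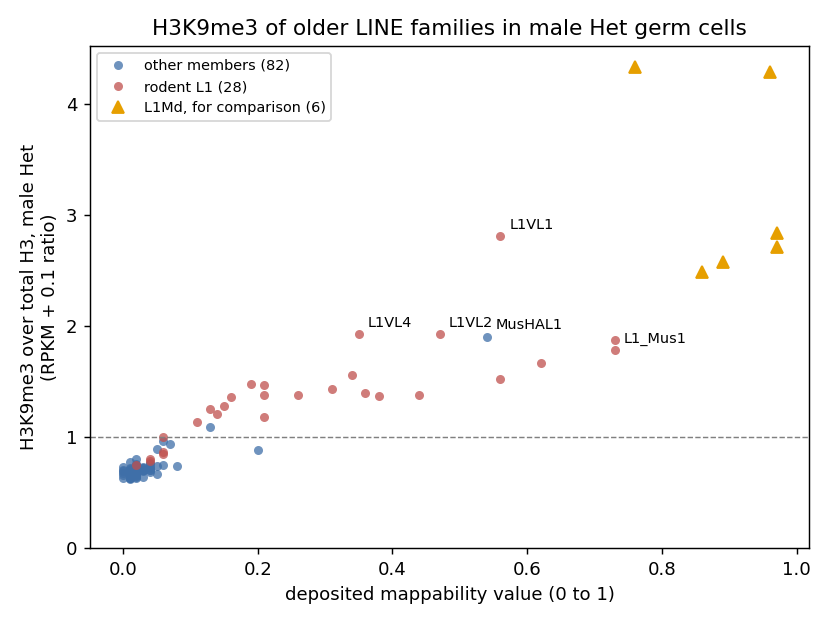
H3K9me3 over total H3 in male Het germ cells (ratio of RPKM + 0.1, 1 library each) against the deposited mappability for 82 members outside the rodent L1 group (blue), 28 rodent L1 families (red) and, for comparison, 6 L1Md families (orange triangles); the dashed line marks a ratio of 1. Members near a mappability of 0 lie below the line, and L1VL1, at a ratio of 2.81, is the highest member.

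In KO germ cells, H3K9me3 over 3 of the older LINE families, L1VL1, L1VL2 and L1VL4, was lower in both sexes. Of all families, 18.6% were lower in both sexes. Over most other members it was the same or slightly higher. L1VL1 had 0.63 RPKM in male Het and 0.44 RPKM in male KO, and 0.57 and 0.50 RPKM in females, over a total H3 of 0.16 RPKM. L1VL2 had 0.40 and 0.26 RPKM in males and 0.38 and 0.34 RPKM in females. L1VL4 had 0.40 and 0.24 RPKM in males and 0.35 and 0.31 RPKM in females. All 3 families kept a ratio to total H3 above 1 in KO, at 1.31 to 2.08 in males and 1.58 to 2.31 in females. On the RPKM + 0.1 scale KO was 0.74, 0.72 and 0.68 times Het in males and 0.896, 0.917 and 0.911 times Het in females.

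With 1 library per sex and genotype these differences have no replicate check within a sex. A rule of size was applied first, with no test: 2-fold or more, in the same direction in both sexes, at RPKM 0.5 or more in at least 1 library of each sex. L1VL1 was the only member among the 102 families that reached this level, and 0 members passed (0% of the 102 families). At a lower level of 0.2 RPKM, which 24 members and 288 families reached, 0 members passed 2-fold and 0 passed 1.5-fold (0% of the 288 families in both cases).

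A group of 8 members was lower in KO in males and higher in females: L1_Mm, L1_Mur1, L1_Mur2, L1_Mus1, L1_Mus2, L1_Mus3, L1_Mus4 and MusHAL1, against 2.41% of all families. MusHAL1 had the largest gap, 0.30 and 0.18 RPKM in male Het and KO and 0.23 and 0.25 RPKM in females. L1_Mm had 0.35 and 0.29 RPKM in males and 0.31 and 0.37 RPKM in females. L1_Mus1, with 27653 elements, had 0.40 and 0.34 RPKM in males and 0.41 and 0.43 RPKM in females. The female steps are 0.02 to 0.06 RPKM for these 3 families. Together with the L1VL families these are all 11 members that were lower in male KO. The L1Md families showed medians of -0.26 (log2) in males and 0.00 in females, and IAP families -0.17 and -0.36.

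**Figure D4:**
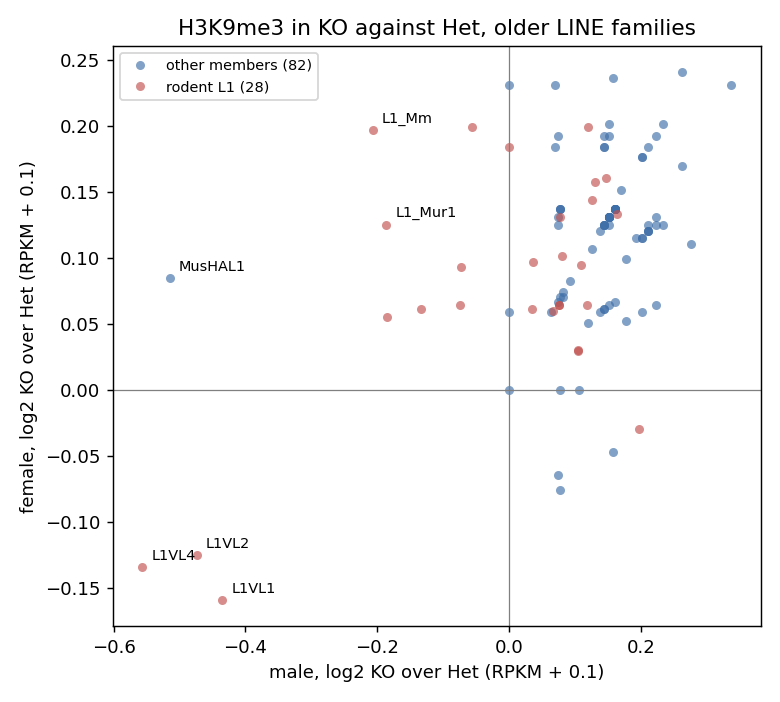
KO over Het for H3K9me3, as log2 of RPKM + 0.1, in males (x axis) and females (y axis), 1 library per sex and genotype, for 82 members outside the rodent L1 group (blue) and 28 rodent L1 families (red). L1VL1, L1VL2 and L1VL4 are lower in both sexes, MusHAL1 and the labelled L1_Mm and L1_Mur1 are lower in males only, and most points lie at small positive values in both.

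The other members differed by small amounts. H3K9me3 was higher in KO in 95 members, equal in 4 and lower in 11 in males, and higher in 100, equal in 3 and lower in 7 in females. Of all families, 72.4% were higher in male KO and 60.5% in female KO. In each sex 24 members were within 0.01 RPKM of equality, the smallest step of the mark values. The members' median was 0.09 RPKM in male Het and 0.115 RPKM in male KO, and 0.13 and 0.15 RPKM in females. The median log2 ratio was 0.14 in males, as over all families (0.14), and 0.13 in females, where all families had 0.05. Over rodent L1 families the median was 0.285 RPKM in both male groups, and 0.34 and 0.36 RPKM in female Het and KO. The large Lx families were on the higher side: Lx6 had 0.18 and 0.21 RPKM in males and 0.24 and 0.28 RPKM in females, and Lx8 had 0.15 and 0.18 RPKM in males and 0.21 and 0.24 RPKM in females.

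A limma fit over the 4 H3K9me3 libraries, with sex as a term, takes the difference of the effect between the sexes as its only error. Of 107 members tested, 54 rose and 2 fell at an adjusted p under 0.05, against 15.3% of all families tested that rose and 4.66% that fell. The 2 that fell were L1VL4 (log2 difference -0.35, SE 0.10, adjusted p = 0.0077) and L1VL2 (-0.30, SE 0.10, adjusted p = 0.0258), and L1VL1 did not pass (-0.30, SE 0.12, adjusted p = 0.053). The rises were of 0.01 to 0.05 RPKM in males and 0.01 to 0.04 RPKM in females, and 53 of the 54 were outside the rodent L1 group, L1_Rod being the exception. All 54 stayed below total H3 in male KO, and 51 of 54 did in female KO.

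The split of these calls turned with scaling. With each library centred on the median of the families tested, 2 members rose (L1M and L5) and 4 fell (L1VL1, L1VL2, L1VL4 and MusHAL1, at -0.39, -0.39, -0.44 and -0.31). Without the trend in the variance, 3 rose (L1M, L1MA4A and L5) and the 3 L1VL families fell, L1VL1 at an adjusted p of 0.0033 by limma. L1M had 0.10 and 0.14 RPKM in males and 0.12 and 0.16 RPKM in females, below or at its total H3 of 0.16 RPKM in all 4 libraries. L5, of the RTE lineage with 122 elements, had 0.09 and 0.14 RPKM in males and 0.13 and 0.17 RPKM in females, over a total H3 of 0.20 RPKM. With a pseudocount of 0.5, which shrinks differences at low RPKM, 52 members rose and 0 fell: L1VL1, L1VL2 and L1VL4 had log2 differences of -0.18, -0.16 and -0.18 with limma adjusted p-values of 0.121, 0.116 and 0.1004.

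H3K27me3, the mark of Polycomb repression, showed no called change over older LINE families. In limma 0 of 110 members were called, while 10.9% of all families fell and 0% rose; 1 member had an unadjusted p under 0.05 and the smallest adjusted p was 0.0953. The members' median level was 0.17 RPKM in male Het and 0.16 in male KO, and 0.18 and 0.21 RPKM in females. The sexes went in opposite directions by small steps: in males KO was lower in 64 members, equal in 41 and higher in 5, and in females it was higher in 102. Of all families, 67% were lower in male KO and 68.1% higher in female KO. The male differences were within 0.01 RPKM in 95 members. No member reached 0.5 RPKM in both sexes, and at 0.2 RPKM, reached by 38 members and 438 families, 0 members passed 2-fold (0% of those families).

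The L1VL families again had the lowest ratios of KO over Het, here for H3K27me3, among the members that reached 0.2 RPKM. Their levels were not low: L1VL1 at 0.36 RPKM was the highest member in male Het. L1VL1 had 0.36 and 0.28 RPKM in male Het and KO, and 0.36 and 0.35 RPKM in females. L1VL4 had 0.23 and 0.18 RPKM in males and 0.24 RPKM in both female groups, and L1VL2 had 0.25 and 0.20 RPKM in males and 0.26 RPKM in both female groups. The male step was present in all 3 families and the female step was 0.01 RPKM or none. This was not particular to them: all 6 L1Md families were lower in male KO, with a median log2 ratio of -0.17 in males and 0.05 in females. All 16 IAP families were lower in KO in both sexes. Lx8, with the most elements, had 0.21 RPKM in both male groups and 0.24 and 0.28 RPKM in females.

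**Figure D5:**
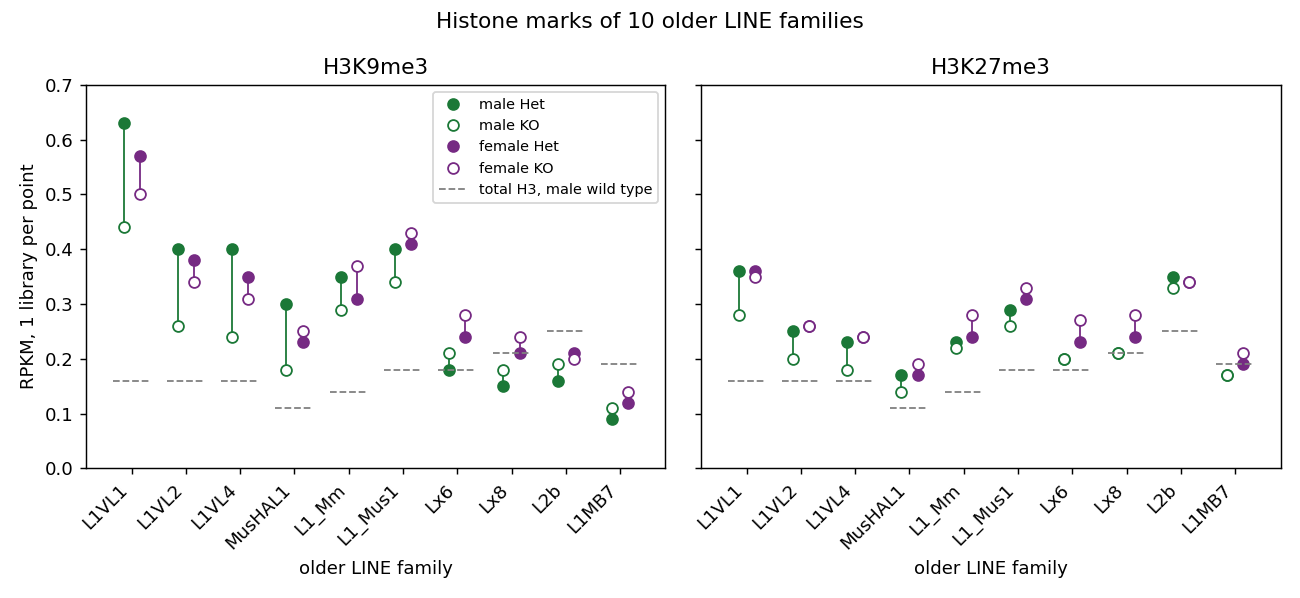
H3K9me3 (left) and H3K27me3 (right) in RPKM over 10 older LINE families, 1 library per point, with Het as filled and KO as open circles, males in green and females in purple, joined by a line within a sex; dashed bars mark total H3 of wild-type males. L1VL1 H3K9me3 is at 0.63 RPKM in male Het and 0.44 in male KO, and at 0.57 and 0.50 in females, while L1MB7 and L2b stay below total H3 for H3K9me3 in all 4 libraries.

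RNA of the 3 families with lower H3K9me3 in both sexes did not set them apart by a test. L1VL2 RNA was 0.13, 0.166, 0.08 and 0.162 RPKM in male Het and 0.24 and 0.181 RPKM in male KO, and 0.11, 0.32, 0.16 and 0.22 RPKM in female Het and 0.16 and 0.25 RPKM in female KO. The male groups did not overlap, and the female KO values were inside the Het range. The combined log2 difference of L1VL2 was 0.23, with an SE of 0.19 and a limma adjusted p of 0.734. For L1VL1, L1VL2 and L1VL4 the male difference was 0.39, 0.42 and 0.38 and the female difference 0.21, 0.04 and 0.12, none of them passing. The 26 rodent L1 families tested had a median of 0.28 in males and 0.06 in females. In males these were the 3 highest differences of that group, followed by Lx9 at 0.32. In females L1VL1 and L1VL4 were the highest of the group, and L1VL2 was below its median. Whether this rank goes with the mark was not tested.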

How the data were processed

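The deposited repeat table gives 1 RPKM per family and library, made by the authors per the file headers; reads were aligned to mm9 with BWA, with SAMtools also named, per the submitters' processing notes. Not given in the sources used here are tool versions, the counter and how reads matching many copies were handled. The same table, as deposited, holds a number of elements (a plain count) and a mappability (a fraction of unstated definition). Depth is unknown. DNA methylation, soma and promoter values at repeats are not analysed here.

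From these values, 14 RNA and 9 ChIP libraries were read, and 12 RNA libraries were fitted as 4 group means with limma 3.58.1 (R 4.3.3, lmFit and eBayes with trend) on log2(RPKM + 0.1). Fold changes on this scale understate changes at low RPKM. Tests were two-sided and took families with 2 or more libraries at or above 0.1 RPKM, with Benjamini-Hochberg adjustment over all of them at a threshold of 0.05. Marks used the rule of size and the 4-library fit given in the text. The fit was tested on simulated data. Alternatives were the pseudocount, filter, scaling, trend, replicate block, control genotype, wild type, and each library left out. The members and lists were chosen with earlier results of these data known. Named families were the 8 with the smallest p for KO over both sexes and the 5 for sex in Het, the 5 highest in RNA, the lowest and highest H3K9me3 and H3K27me3 ratios, the 5 highest in H3K9me3, the 3 with the most elements, and those with the lowest mappability, where the rule asked for 3 and 6 tied at 0. Because 1 member reached RPKM 0.5 for H3K9me3 and none for H3K27me3, the mark ratios were ranked at 0.2, a level chosen after seeing the data. L1M, L2b, L1_Rod, L1MA4A, L1ME3B, L1_Mur1, L1_Mur2, L1_Mus3 and L1_Mus4 were named after their values were seen. No LINE sequence is printed.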

Additional observations from a re-analysis of the deposited data

Results flagged for a closer look

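Of the 4 Het libraries of a sex, 1 stood apart by Dixon's criterion for 2 of 72 values of named families examined, and chance sets apart about 1 in 20. L1VL1 RNA was 0.04 RPKM in male Het2 replicate 1, against 0.07, 0.072 and 0.074 RPKM in the others. L1M3b RNA was 0.03 RPKM in female Het1 replicate 1, against 0.11, 0.12 and 0.12 RPKM. Over all 110 members and both sexes 4 of 220 values (1.82%) stood apart in this way.

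For H3K9me3, 5 of the 35 families named by rule differed between KO and Het in opposite directions in the sexes. Over all 110 members, 8 were lower in male KO and higher in female KO, and 4 the reverse. Each direction rests on 1 library per genotype and the difference was not tested. The female minus male gap of the log2 difference was 0.5995 for MusHAL1, 0.4035 for L1_Mm, 0.2399 for L1_Mus1 and 0.1957 for L1_Mus2, all lower in male KO and higher in female KO. For L1MEa it was -0.1381, with KO higher in males and lower in females by 0.01 RPKM each, the smallest step of the mark values.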

How the results depend on the processing

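With the replicate number as a block, 1 member was called in male RNA (L1M3a, log2 difference 0.76, adjusted p = 0.0209 by limma). Over both sexes 2 were called (L1M3a, 0.49, adjusted p = 0.0234, and L1M3b, 0.41, adjusted p = 0.0397). The block changed no other count of members called in RNA. Counts at an unadjusted p under 0.05 rose from 1 to 18 in males, 0 to 1 in females and 2 to 5 over both sexes. They rose from 1 to 2 for the difference of the effect between the sexes and from 3 to 29 for sex in Het. For Het1 against Het2 the count stayed at 0. With the block and centring together, an alternative chosen after seeing the data, 0 members were called in every RNA comparison (L1M3a over both sexes 0.29, adjusted p = 0.295, and L1M3b 0.21, adjusted p = 0.383). Deviations of same-numbered libraries from their group means correlated above 0.1 in 13 of 15 pairs of groups (-0.137 to 0.669), so the numbers carry a shared pattern in most groups; they were not treated as pairs because the labels give them no meaning and 2 pairs of groups stayed at or below 0.1. Under the alternatives other than the block alone, 0 members were called in any RNA comparison. With 1 library left out the count of members called was 0 throughout, and the members' median ranged from 0.208 to 0.3958 in males, -0.2481 to 0.1998 in females, 0.0427 to 0.2556 over both sexes, -0.5623 to -0.11 for the difference of the effect between the sexes, 0.0756 to 0.4137 for sex in Het and -0.172 to 0.3515 for Het1 against Het2. Quantile normalization turned L1VL4 to -0.007 and Lx3B to -0.052 over both sexes. For H3K9me3 with sex as a term (56 members called, median log2 difference 0.13), centring and the fit without trend each left 6 calls, and a pseudocount of 0.5 left 52, none of them a fall. Its median was 0.1713 with a pseudocount of 0.05, 0.0469 with 0.5 and 0.0414 with centring. The rule of size at a level of RPKM 1 had no member to judge, and for H3K27me3 only the level of 0.2 gave members. Depth cannot be read from RPKM. Steps of 0.01 RPKM, in the marks and in most RNA libraries, limit the ratios and library orders of families near 0.1 RPKM.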
